A study of Arabidopsis thaliana with 24 samples.

Results

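The effect of the pkl mutation on each transcript was compared between plants with and without a pif4 mutation, so that transcripts could be found whose level in the pkl pif4 combination is not what the single mutants predict. Of the 24 samples of the series, 12 libraries with the number 28 in their names were used. They come from whole 9-day-old Arabidopsis thaliana seedlings labelled WT, pkl (allele pkl-1), pif4 (no allele named) and pklpif4 (pkl-1 with pif4), with 3 biological replicates each. All groups were labelled as grown in continuous white light, and the growth condition behind the number 28 rests on the labels alone. A second pair of deposited tables held identical values under column names that join 28 with cR, the prefix of the remaining 12 samples (labelled continuous red light), so the files do not show which of these conditions the values come from. The interaction was taken as the log2 change from pif4 to pklpif4 minus the log2 change from WT to pkl. It was tested in 22130 of the 33612 genes listed, those with enough counts. Its value is 0 where the fold changes of the single mutants multiply in the pklpif4 libraries, positive where the pklpif4 level is above that product and negative where it is below. Nothing in the labels says whether the replicates came from separate cultures, so p-values measure the spread between these samples, which may be technical.

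PKL (PICKLE) belongs to the CHD3 chromatin remodellers and keeps embryo and seed genes silent after germination. PIF4 is a bHLH transcription factor that is degraded after light activates phytochrome. It binds G-box and PBE elements, and it promotes elongation growth in warmth and shade. When both factors act on the same genes, or on each other, the loss of both can give a result that neither single loss predicts, which geneticists call epistasis. Transcripts of the storage proteins, oil body proteins and late embryogenesis proteins accumulate in maturing seeds, under the regulators LEC1, LEC2, FUS3, ABI3 and ABI5.

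Total counts per library were 37762216 to 56492669. Levels are in normalised CPM (each count over its library total, adjusted with TMM factors and multiplied to a common size) and are given as mean ± SD with n = 3 throughout. For PKL transcript (AT2G25170), WT had 97.3 ± 4.12 CPM, pkl had 103 ± 4.03, and the libraries with the pif4 label had 91.8 ± 3.34 without and 104 ± 2.64 with pkl. Its interaction was 0.10 ± 0.05 (log2 ± SE, adjusted p = 0.112, edgeR), and it passed without WT replicate 1 (0.14) or pkl replicate 2 (0.14). PIF4 transcript (AT2G43010) was 105, 100 and 96.0 CPM in WT, 68.4, 66.4 and 62.5 in pkl, 178, 172 and 172 in the pif4-labelled libraries and 149, 149 and 147 in the pklpif4-labelled libraries. The libraries labelled pif4 and pklpif4 were thus above WT for the transcript of the gene named in the label. A transcript count does not show whether the protein is lost, and these groups are named by their labels here. The PIF4 interaction was 0.38 ± 0.05 (adjusted p = 3.13e-11). PAO2, a polyamine oxidase gene beside PIF4, had 24.4 ± 3.04, 27.7 ± 2.52, 159 ± 5.04 and 122 ± 3.42 CPM in WT, pkl, pif4-labelled and pklpif4-labelled libraries (interaction -0.56 ± 0.09, adjusted p = 1.12e-05). Its counts equal those of the overlapping AT2G43018, so its own reads were not separable.

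The printed promoters show the regulatory sequence next to the genes that carry the result. Each is the 250 bases before the RefSeq gene start, read 5′ to 3′ on the gene's strand from assembly TAIR10.1. Capitals mark matches, on either strand, to 4 motifs, namely CATGCA (the RY core read by B3 factors such as ABI3), CACGTG (the G-box), CACATG (the PBE) and ACGTG (the core of the abscisic acid element, which every G-box also holds). The cruciferin gene CRU3 (chr4:14087306-14087555, plus strand) and the albumin gene SESA5 (chr5:22239188-22239437, minus strand) are shown because their interactions were large and positive, and they were chosen after their values were seen. CAB2 (chr1:10475970-10476219, minus strand), which encodes a chlorophyll-binding antenna protein, is shown as an abundant transcript with a positive interaction. DR4 (chr1:27569824-27570073, minus strand), a gene repressed by drought, is shown as an abundant transcript with a negative one.
CRU3: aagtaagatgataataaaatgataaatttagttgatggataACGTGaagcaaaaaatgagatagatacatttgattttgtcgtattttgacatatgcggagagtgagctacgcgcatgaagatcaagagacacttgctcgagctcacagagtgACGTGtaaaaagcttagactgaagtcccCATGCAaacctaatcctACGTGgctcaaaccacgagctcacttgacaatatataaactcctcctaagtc
SESA5: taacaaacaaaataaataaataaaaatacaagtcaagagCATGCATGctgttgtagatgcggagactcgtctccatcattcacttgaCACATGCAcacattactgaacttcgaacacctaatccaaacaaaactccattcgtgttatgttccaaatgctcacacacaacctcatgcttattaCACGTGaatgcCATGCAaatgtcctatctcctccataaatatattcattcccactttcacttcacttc
CAB2: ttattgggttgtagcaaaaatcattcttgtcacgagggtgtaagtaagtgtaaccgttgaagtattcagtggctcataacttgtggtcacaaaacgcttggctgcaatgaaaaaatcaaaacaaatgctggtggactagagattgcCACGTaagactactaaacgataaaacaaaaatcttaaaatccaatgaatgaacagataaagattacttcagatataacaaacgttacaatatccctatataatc
DR4: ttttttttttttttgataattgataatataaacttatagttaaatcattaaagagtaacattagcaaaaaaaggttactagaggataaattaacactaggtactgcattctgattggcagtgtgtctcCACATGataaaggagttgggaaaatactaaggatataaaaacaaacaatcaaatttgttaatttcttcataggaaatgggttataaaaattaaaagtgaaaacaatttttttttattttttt
A match of letters is a description and not evidence of binding. The CRU3 window held 1 RY core and 3 ABRE cores, and the SESA5 window held 4 RY cores, 1 G-box and 1 PBE. The CAB2 window held 1 ABRE core and the DR4 window 1 PBE. Across the 21523 promoters of tested genes with a RefSeq start, the RY core was in 8.01%, the G-box in 7.42%, the PBE in 11.4% and the ABRE core in 24.1%. Among the 603 promoters of genes called higher by at least 2-fold the RY core was in 106, and the shares of the other motifs were 20.9%, 17.9% and 44.3%. Among the 1078 promoters of genes called lower by at least 2-fold the RY core was in 140 (13%), and the other shares were 4.92%, 14.7% and 32.4%. The RY core was in 8 of 9 storage protein promoters and 8 of 9 tested oil body promoters, and the ABRE core in 10 of 12 late embryogenesis promoters. No test was run on these shares.

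The interaction was called in 7054 genes, 31.9% of those tested (edgeR's quasi-likelihood test, two-sided, Benjamini-Hochberg adjusted p under 0.05). It was positive in 3394 (15.3%) and negative in 3660 (16.5%), and at least 2-fold in 621 (2.81%) and 1108 (5.01%). The median over all genes tested was -1.27e-05. The split depends on the scaling. Positive calls were 48.1% of all calls with TMM factors, 31.1% with library totals (2391 positive, 5297 negative) and 32.5% on log2(FPKM + 1) (2320 positive, 4812 negative). The pkl effect itself was called in 11858 genes in WT (53.6%, with 27.1% up and 26.5% down) and in 11099 in the pif4-labelled background (50.2%, with 25.5% up and 24.7% down). The pkl effect was called in the same direction in both backgrounds in 6630 genes, which is 55.9% of the first list and 59.7% of the second. It was called in opposite directions in 1058 genes, of which 519 rose in WT and fell in the pif4-labelled background and 539 did the reverse. The interaction is the difference of these effects in the same fit, so its call in each of these 1058 genes adds no separate result. Across genes, which are not independent replicates, the effects in the 2 backgrounds correlated with Pearson's r = 0.50 and Spearman's rho = 0.53. These comparisons share no library. Read from the other factor, the pif4-labelled effect was called in 7184 genes in WT (32.5%, with 16.2% each way) and 8840 in pkl (39.9%, with 19.5% up and 20.5% down). Of these, 2864 had the same direction in both and 1357 the opposite, with r = 0.25 and rho = 0.19 across genes. The combination differed from WT in 54.8% (27.2% up, 27.7% down).

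**Figure D1:**
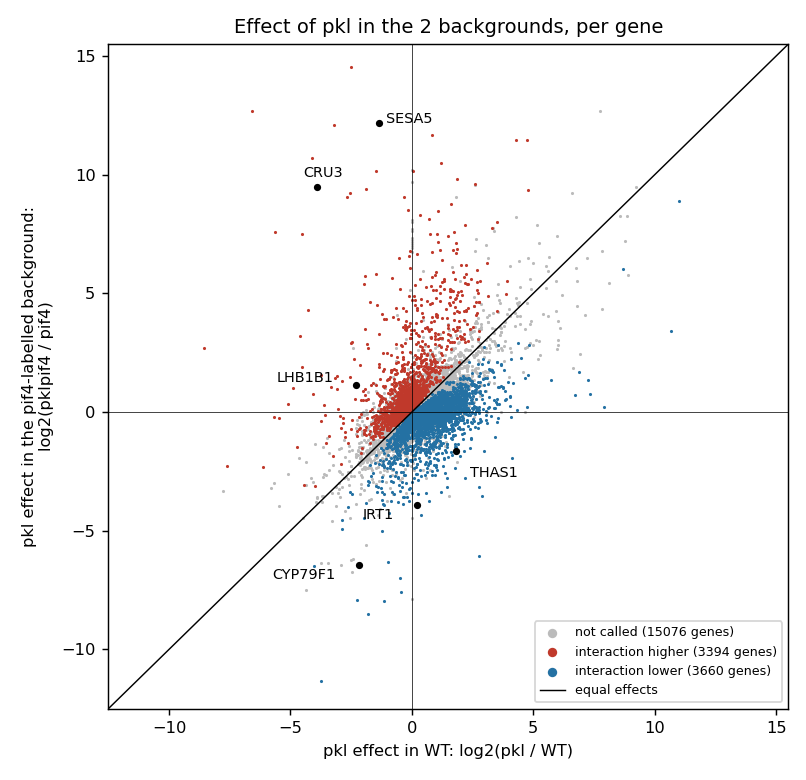
Log2 change from WT to pkl (x axis) against log2 change from pif4-labelled to pklpif4-labelled libraries (y axis), 1 point per gene tested, coloured by the interaction call; the line marks equal effects. SESA5, CRU3 and LHB1B1 lie in the upper left part, where pkl lowered the transcript in WT and raised it in the pif4-labelled background, and IRT1 and THAS1 lie in the lower right.

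Departures from the product of the single effects took several forms. In 1021 of the 7054 called genes (14.5%), the pklpif4-labelled libraries were called above WT, pkl and pif4, and in 1063 (15.1%) they were called below each of them. In 2042 genes (28.9%), outside those patterns, both single mutants were called on the same side of WT and the interaction had the opposite sign, so that the combination went less far than their product. There were 1246 such genes with both singles above WT and 796 with both below. A further 2017 genes (28.6%) had only 1 single mutant called and an interaction of the opposite sign, 573 (8.12%) had singles called on opposite sides of WT, and 338 (4.79%) had none of these forms. Counted on the linear CPM scale, as pklpif4 minus the sum of pkl and pif4 less WT, the sign was the same in 3355 of the 3394 positive genes (98.9%) and 3606 of the 3660 negative ones (98.5%).

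**Figure D2:**
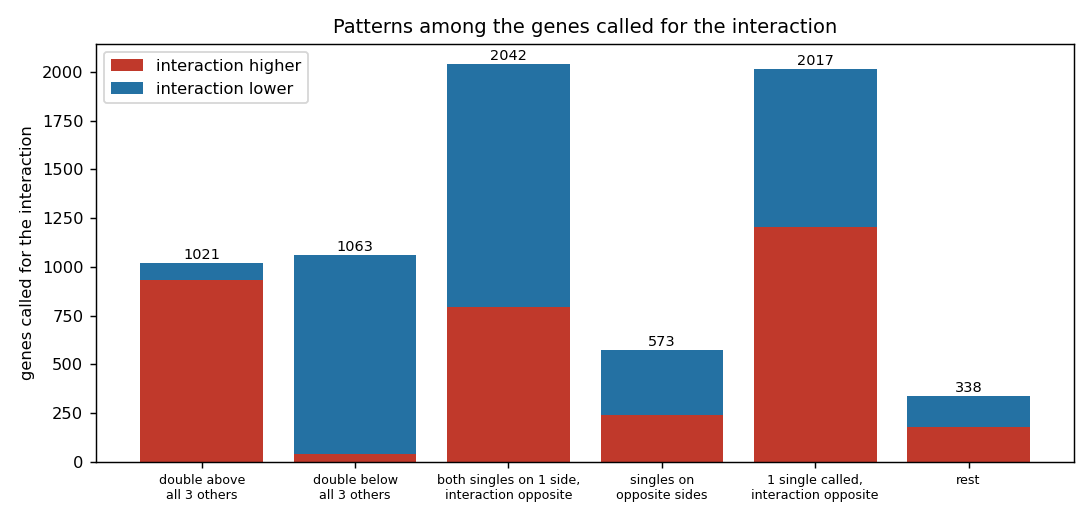
Number of genes called for the interaction (y axis) in each of 6 patterns (x axis), split by the sign of the interaction. Of the 1021 genes in which the pklpif4-labelled libraries were above all others, 931 had a positive interaction, and of the 1063 in which they were below all others, 1024 had a negative one.

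The gene lists used below were chosen with earlier results of these data known, so their counts are descriptions and not tests. Of 9 seed storage protein genes, all but SESA4 were called higher in the pklpif4-labelled libraries than in each other genotype. Over all genes tested, 27.2% were called above WT there, 19.5% above pkl and 25.5% above the pif4-labelled libraries. In 5 storage genes (CRU3, SESA5, CRA1, SESA2 and SESA3) the interaction was also called positive. CRU2, SESA4 and AT1G03890 reached no more than 1.98 CPM in the pklpif4-labelled libraries. CRU3, which encodes the globulin cruciferin 3 (AT4G28520, chromosome 4, 14087556 to 14089796), had 17.02, 15.9 and 17.2 CPM in WT, 1.14, 1.40 and 0.837 in pkl, 1.48, 1.85 and 1.76 in the pif4-labelled libraries and 1189, 1182 and 1207 in the pklpif4-labelled libraries. Each single mutant lay below WT and the combination lay above all of them, with no overlap. The product of the single effects would give 0.114 CPM, against 1192 ± 12.9 measured (interaction 13.35 ± 0.08, adjusted p = 3.15e-118). The pkl effect was -3.89 ± 0.07 in WT and 9.46 ± 0.05 in the pif4-labelled background. SESA5, a storage albumin gene (AT5G54740), had 1.43, 0.866 and 0.865 CPM in WT, 0.295, 0.616 and 0.419 in pkl, 0.0856, 0.126 and 0.149 in the pif4-labelled libraries and 569, 568 and 544 in the pklpif4-labelled libraries. Here too both singles were below WT (interaction 13.52 ± 0.31, adjusted p = 9.96e-60). The cruciferin gene CRA1 (AT5G44120) had 31.6, 29.3 and 31.6 CPM in WT, 40.2, 38.8 and 35.9 in pkl, 37.6, 38.1 and 40.5 in the pif4-labelled libraries and 1915, 1876 and 1893 in the pklpif4-labelled libraries. Its single mutants stood slightly above WT, and the combination was 39.3 times the 48.2 CPM that the single effects would give (interaction 5.30 ± 0.04, adjusted p = 1.59e-97). Of the 9 storage genes, 5 were called positive and none negative, beside 15.3% and 16.5% of all genes tested, with a median of 6.71. Only CRU3, SESA5 and CRA1 had at least 7 counts in every group, and the median over these 3 was 13.35.

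The remaining storage genes had groups near 0, so their levels are given and not the fitted change. The albumin gene SESA2 had 7 counts summed over the 3 WT libraries, 207 over those of pkl, 6 with the pif4 label alone and 17479 in the combination, and was called. SESA3 had 2, 48, 0 and 1031 counts in the same order and was called (adjusted p = 0.0065), but not without WT replicate 2 (adjusted p = 1) or with counts halved (0.0544). SESA1, with 0, 82, 0 and 2446 counts, was not called, and it was called with DESeq2 (adjusted p = 0.0115) and on log2(FPKM + 1), where 8 storage genes were called. SESA1 to SESA4 stand in tandem and are near copies of each other, so the split of reads among them is uncertain. CRU2 (AT1G03880) had 2, 123, 4 and 262 counts and SESA4 had 0, 43, 4 and 93, and neither was called. In both, and in SESA1 to SESA3, pkl alone was called above WT. The cruciferin-like gene AT1G03890 had 72 counts in the pklpif4-labelled libraries and 0 in the others, and its interaction was not called with edgeR (adjusted p = 1) but was with DESeq2 (adjusted p = 0.00824) and with limma on log2(FPKM + 1) (0.00683).

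Late embryogenesis transcripts, whose products protect drying seeds, were called positive in 12 of 12 genes, beside 15.3% of all genes tested, with a median interaction of 3.55 (3.496 over the 11 with at least 7 counts in every group). In 11 of the 12 the pklpif4-labelled level was called above that of each other genotype. The exception was M10, at 1.24 ± 0.352 CPM in pkl and 1.31 ± 0.388 in the combination. ECP31 (AT3G22500), a seed maturation gene, had 0.217, 0.229 and 0.0541 CPM in WT, 0.0368, 0 and 0.0465 in pkl, 0 in all 3 pif4-labelled libraries and 69.9, 65.7 and 62.2 in the pklpif4-labelled libraries. With 0 counts in a group its fitted interaction (17.03) depends on the model's prior count, and the measured level was 396 times that of WT, the highest of the other groups. EM1, a gene for a small hydrophilic embryo protein, had 0.344, 0.509 and 0.189 CPM in WT, 0.645, 1.37 and 1.79 in pkl, 0.899, 1.10 and 0.893 in the pif4-labelled libraries and 96.9, 106 and 101 in the pklpif4-labelled libraries. It rose in each single mutant and far beyond their product of 3.52 CPM in the combination (interaction 4.91 ± 0.52, adjusted p = 3.35e-08). RAB18 (AT5G66400), a dehydrin gene, instead fell in both singles, with 26.0 ± 2.09, 14.9 ± 0.546, 19.7 ± 1.08 and 317 ± 3.03 CPM in WT, pkl, pif4-labelled and pklpif4-labelled libraries (interaction 4.79 ± 0.07). PER1, a seed peroxiredoxin gene, came nearer to the product. Its level was 3.12 ± 0.527 CPM in WT, 15.3 ± 0.744 with pkl, 10.9 ± 0.830 with the pif4 label and 86.8 ± 1.57 in the combination, 1.63 times the product (interaction 0.67 ± 0.12, adjusted p = 9.64e-07). The call of LEA18 (interaction 0.35 ± 0.11) was lost without WT replicate 2 (adjusted p = 0.0812).

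Of 9 tested oil body and lipid storage genes, 7 were positive and 1 negative, against 15.3% and 16.5% of all genes, and in those 7 the pklpif4-labelled level was called above each other genotype. The list had a median of 4.97 (4.53 over the 7 with at least 7 counts in every group). OLEO4, an oleosin gene, had 0.886, 0.458 and 0.919 CPM in WT, 0.626, 0.947 and 0.605 in pkl, 0.449, 0.211 and 0.496 in the pif4-labelled libraries and 25.0, 26.1 and 24.9 in the pklpif4-labelled libraries. The pkl and WT libraries overlapped, the pif4-labelled ones were lower on average, and the pklpif4-labelled ones stood 33.6 times above the highest other mean (interaction 6.14 ± 0.33, adjusted p = 1.62e-32). OLEO2 rose in each single, from 0.920 ± 0.229 CPM to 5.23 ± 0.0623 in pkl and 3.46 ± 0.304 in the pif4-labelled libraries, and reached 75.4 ± 2.27 in the combination (interaction 1.91 ± 0.19). CLO2, a caleosin gene, had 7, 28, 2 and 2118 counts and was called, while the steroleosin gene HSD1 (AT5G50600) had 2, 3, 2 and 142 and was not (adjusted p = 0.0653). HSD1 was called with DESeq2 (adjusted p = 0.0086), on log2(FPKM + 1) and without each of 3 libraries. The call of the caleosin gene CLO1 was lost with DESeq2 (adjusted p = 0.0876) and without WT replicate 2 (0.0699). The negative member was DGAT1, an acyltransferase gene of oil synthesis that is active in many tissues, at 13.9 ± 0.968, 20.9 ± 0.922, 17.39 ± 1.72 and 20.2 ± 0.513 CPM in WT, pkl, pif4-labelled and pklpif4-labelled libraries.

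Of 11 tested regulators of seed maturation, 3 were positive and 2 negative, beside 15.3% and 16.5% of all genes, so the negative count was near the share over all genes. ABI3, a B3 factor that activates storage protein genes, had 1.47, 1.68 and 1.73 CPM in WT, 5.84, 5.37 and 4.98 in pkl, 4.15, 3.98 and 3.87 in the pif4-labelled libraries and 30.3, 30.1 and 31.6 in the pklpif4-labelled libraries. It rose in each single mutant and lay 2.31 times above their product (interaction 1.19 ± 0.18, adjusted p = 1.13e-08). ABI5, a bZIP factor of abscisic acid signalling in seeds, rose in pkl and was 20.9 ± 0.639 CPM in the combination, against 0.726 ± 0.271, 1.93 ± 0.406 and 1.03 ± 0.0962 in WT, pkl and pif4-labelled libraries (interaction 2.93 ± 0.28, adjusted p = 1.69e-16). The bZIP gene EEL had 22.2 ± 0.749 CPM in the combination and 13.4 to 15.2 on average elsewhere (interaction 0.74 ± 0.11). FUS3, another B3 factor of embryo maturation, was 0.604 to 0.750 CPM on average in the 4 groups (interaction -0.12 ± 0.55, adjusted p = 0.903). LEC1 had 0, 4, 2 and 0 counts, too few to be tested, as were LEC2 and BZIP67. ABI4, another abscisic acid factor, had 2, 3, 13 and 190 counts, and its interaction was not called (adjusted p = 0.198), though it was on log2(FPKM + 1). The negative members were L1L and VAL1. L1L, which encodes a relative of LEC1, had 20, 47, 35 and 13 counts. VAL1, which encodes a B3 repressor of the seed programme, had 51.6, 62.2, 55.3 and 59.3 CPM on average. Leaving out single libraries removed each of these calls, 8 of the 12 libraries for L1L and 4 for VAL1, and that of L1L was also lost with no filter (adjusted p = 0.0781).

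Of 6 seed and embryo markers, CRA1, CRU3, OLEO1 and ABI3 were higher in the combination, and LEC1 and FUS3 were not. Those that were higher are also members of the lists above, and CRA1 and CRU3 make up most of the sum, so it adds no separate result. The 6 summed to 47.9 to 51.9 CPM in WT, 44.1 to 49.4 with pkl, 44.5 to 47.6 with the pif4 label and 3149 to 3193 in the combination, while LEC1 stood at 0 to 4 counts a group and FUS3 at 0.604 to 0.750 CPM. In RNA from whole seedlings, more cells of a type and more RNA per cell cannot be told apart. Whether ungerminated or late seeds were among the pklpif4-labelled seedlings was not tested.

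**Figure D3:**
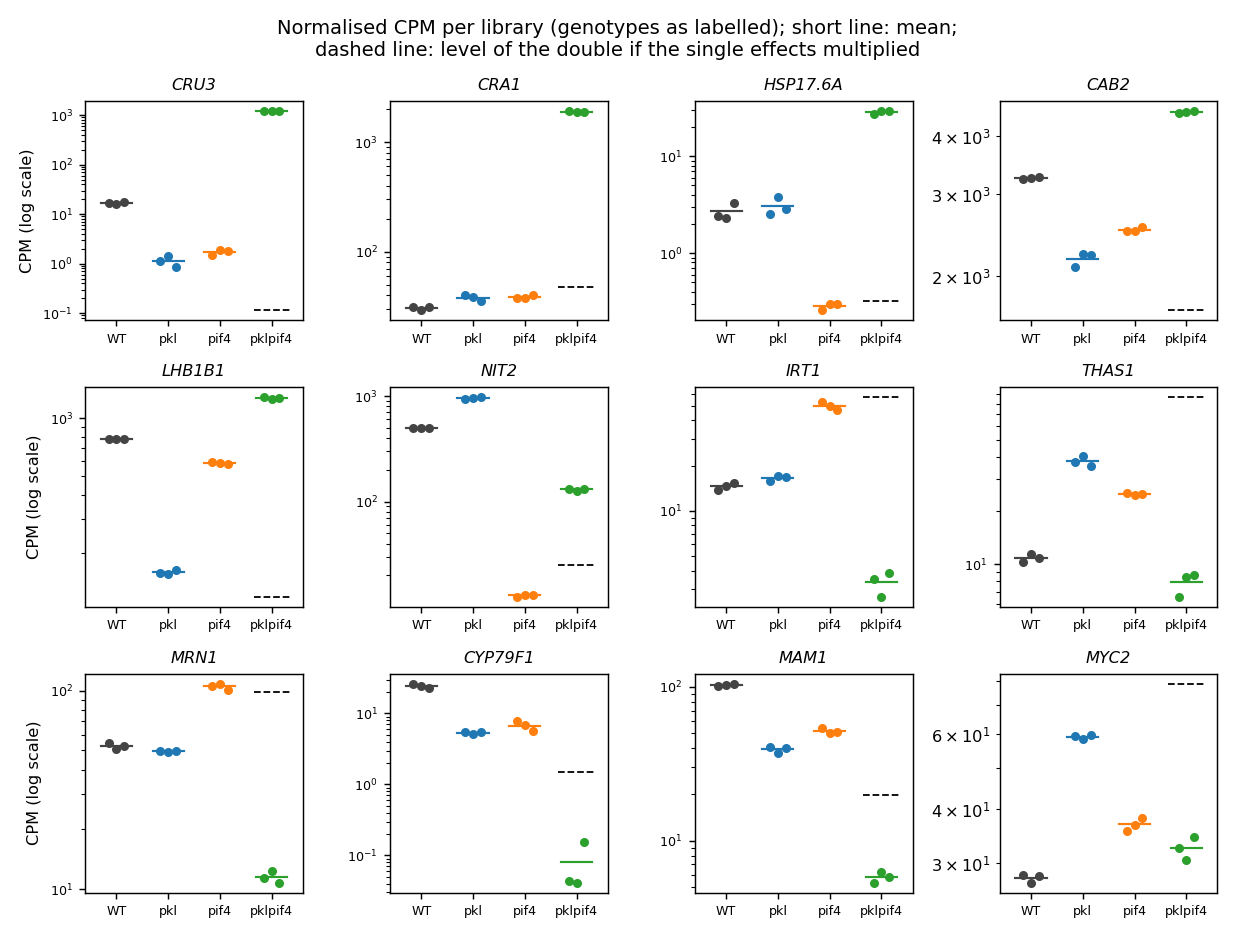
Normalised CPM on a log axis (y axis) in each of the 12 libraries by labelled genotype (x axis) for 12 genes, with a short line at each mean and a dashed line at the level the single effects would give by multiplication. CRU3, CRA1 and HSP17.6A stand far above the dashed line in the combination and CYP79F1, IRT1 and THAS1 far below it.

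Genes for the photosystem antenna and the small Rubisco subunit fell in pkl, and 14 of 16 fell with the pif4 label (16.2% of all genes), while in the combination 10 were called above WT (27.2% of all genes) and 3 (LHCA2, LHCA3 and LHCA4) below it (27.7%). All 16 had a positive interaction, beside 15.3% of all genes tested, with a median of 0.86. In WT, pkl lowered all 16 (26.5% of all genes), while in the pif4-labelled background it raised 15 (25.5%) and lowered RBCS1B. CAB2 had 3233, 3247 and 3257 CPM in WT, 2085, 2230 and 2213 in pkl, 2494, 2492 and 2543 in the pif4-labelled libraries and 4491, 4502 and 4532 in the pklpif4-labelled libraries. The single mutants lay below WT and the combination above it, 2.68 times the product of the single effects (interaction 1.42 ± 0.02, adjusted p = 4.97e-79). LHB1B1, a light-harvesting gene of photosystem II outside the list of 16, had 784, 784 and 781 CPM in WT, 157, 155 and 163 in pkl, 595, 584 and 580.4 in the pif4-labelled libraries and 1285, 1264 and 1280 in the pklpif4-labelled libraries. The low level in pkl was absent from the combination (interaction 3.43 ± 0.03, adjusted p = 1.49e-107). LHCA1, of the photosystem I antenna, had 1395 ± 17.8, 767 ± 19.3, 1087 ± 8.99 and 1391 ± 15.9 CPM, so that the combination stood at the WT level (interaction 1.22 ± 0.03). LHCA4 came back to slightly below WT, with 3049 ± 41.4, 1882 ± 20.2, 2274 ± 24.2 and 2928 ± 74.0 CPM (1.06 ± 0.02). LHB1B2, also outside the list, and CAB3 went above WT, to 4316 ± 16.1 from 3979 ± 29.2 CPM and to 2408 ± 29.4 from 1649 ± 24.2. LHCB3 had 2051 ± 5.15, 1362 ± 7.38, 1343 ± 20.4 and 2365 ± 33.3 CPM (interaction 1.41 ± 0.02). The smallest value of the group, 0.17 ± 0.03 for RBCS1B, was not called on log2(FPKM + 1) (adjusted p = 0.0636). CAB1 to CAB3, LHB1B1 and LHB1B2, and the RBCS genes are near copies within their families, so separate values are uncertain. LHCA4, LHCB3 and LHB1B2 also overlap other gene models. The summed level of the 16 genes was 60404 ± 563, 45832 ± 516, 53630 ± 256 and 67010 ± 776 CPM in WT, pkl, pif4-labelled and pklpif4-labelled libraries. The 4 green tissue markers, all of them also in this list, summed to 28999 to 29621, 23433 to 23997, 27452 to 27791 and 32404 to 33193 CPM in the same order.

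Heat shock genes encode chaperones and their regulators. Of 12 tested, 8 were positive and 1 negative, beside 15.3% and 16.5% of all genes, with a median of 0.64. HSP17.6A, a small cytosolic heat shock protein gene, had 2.44, 2.32 and 3.32 CPM in WT, 2.52, 3.84 and 2.88 in pkl, 0.257, 0.295 and 0.298 in the pif4-labelled libraries and 27.2, 29.2 and 28.9 in the pklpif4-labelled libraries. The WT and pkl libraries overlapped, the pif4-labelled ones were lowest, and the combination was highest (interaction 6.45 ± 0.24, adjusted p = 4.49e-45). HSP17.4, which overlaps AT3G46220, and the mitochondrial HSP23.6 were likewise lowest with the pif4 label and highest in the combination, with 12.2 ± 0.452 and 5.05 ± 0.281 CPM in the combination and 1.12 ± 0.288 and 0.235 ± 0.129 in the pif4-labelled libraries. HSP17.6C did not exceed WT. It had 3.53 ± 0.0829 CPM in WT, 0.243 ± 0.0925 with the pif4 label alone and 1.39 ± 0.332 in the combination (interaction 2.91 ± 0.39). Other chaperone genes moved by less, such as HSP70 with an interaction of 0.72 ± 0.05 and HSP90.1 with 0.42 ± 0.06. The factor gene HSFA7A was the negative member (-0.77 ± 0.14). The call of the coactivator gene MBF1C (0.25 ± 0.10) was lost in 4 of the other settings and without each of 6 libraries.

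Abscisic acid and drought genes were positive in 8 of 12 cases (15.3% of all genes) and negative in 1 (16.5%), with a median of 0.56. RD29B, a drought-response gene induced by abscisic acid, had 19.8, 17.3 and 19.2 CPM in WT, 21.9, 23.5 and 24.9 in pkl, 17.9, 19.5 and 20.8 in the pif4-labelled libraries and 129, 134 and 134 in the pklpif4-labelled libraries. The combination stood far above the other groups, which lay between 17.3 and 24.9 (interaction 2.46 ± 0.08, adjusted p = 4.57e-52). The phosphatase gene HAI2, a brake on abscisic acid signalling, fell in each single, from 1.39 ± 0.128 CPM in WT down to 0.372 ± 0.119 with pkl and 0.509 ± 0.0643 with the pif4 label, and was 3.67 ± 0.382 in the combination (interaction 4.72 ± 0.42). The factor gene ABF3 fell in each single and no further in the combination, with 221 ± 3.16, 140.3 ± 10.2, 157 ± 2.22 and 160.0 ± 2.16 CPM (interaction 0.69 ± 0.04). NCED5, of abscisic acid synthesis, was called on 16, 6, 2 and 53 counts. RD22, a dehydration-response gene, fell further than the product, to 98.4 ± 4.85 CPM from 171 ± 2.66 in WT (-0.25 ± 0.04).

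Of 16 PIF4-dependent growth genes tested, 15 were called lower in the pif4-labelled libraries than in WT (16.2% of all genes) and 14 lower in the pklpif4-labelled libraries than in pkl (20.5%). The interaction was positive in 7 and negative in 2, against 15.3% and 16.5% of all genes, with a median of 0.54. HFR1, which encodes a bHLH partner that restrains PIFs, had 87.9, 82.7 and 85.1 CPM in WT, 50.8, 53.5 and 49.2 in pkl, 12.6, 12.5 and 13.0 in the pif4-labelled libraries and 13.1, 11.9 and 12.3 in the pklpif4-labelled libraries. The pif4-labelled and pklpif4-labelled libraries overlapped, so the fall seen in pkl did not recur there (interaction 0.71 ± 0.08, adjusted p = 1.18e-12). The expansin gene EXPA8, for a wall-loosening protein, fell to 27.4 ± 1.31 CPM in pkl and 35.2 ± 1.86 in the pif4-labelled libraries from 73.6 ± 3.99 in WT, and was 30.5 ± 1.14 in the combination (interaction 1.22 ± 0.07). The auxin-response gene IAA29 had 6.99 ± 0.374, 10.5 ± 0.633, 0.727 ± 0.177 and 2.40 ± 0.253 CPM (interaction 1.12 ± 0.24). XTH15, a wall-remodelling gene, instead went below the product, with 51.5 ± 1.81, 32.2 ± 2.68, 38.9 ± 0.928 and 16.0 ± 1.87 CPM (-0.61 ± 0.08). The shade gene HB-2 was the other negative member (-0.27 ± 0.10), a call lost without each of 4 libraries. The SAUR19 to SAUR24 genes are near copies, and of the 4 listed only SAUR20 was called (0.54 ± 0.21), a call lost with library totals and without each of 6 libraries. In the wider auxin response list, 1 of 12 genes was positive and 3 negative, near the 15.3% and 16.5% of all genes. The positive one, IAA6, had 9 to 131 counts a group and lost its call in 4 other settings, among them the fit with replicate number as a block, and without each of 9 libraries. Of the negative ones, GH3.3 and LBD29 lost their calls without each of 4 and 5 libraries. With library totals and on log2(FPKM + 1), SHY2, IAA4 and DFL1 were called negative too, 6 in all.

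**Figure D4:**
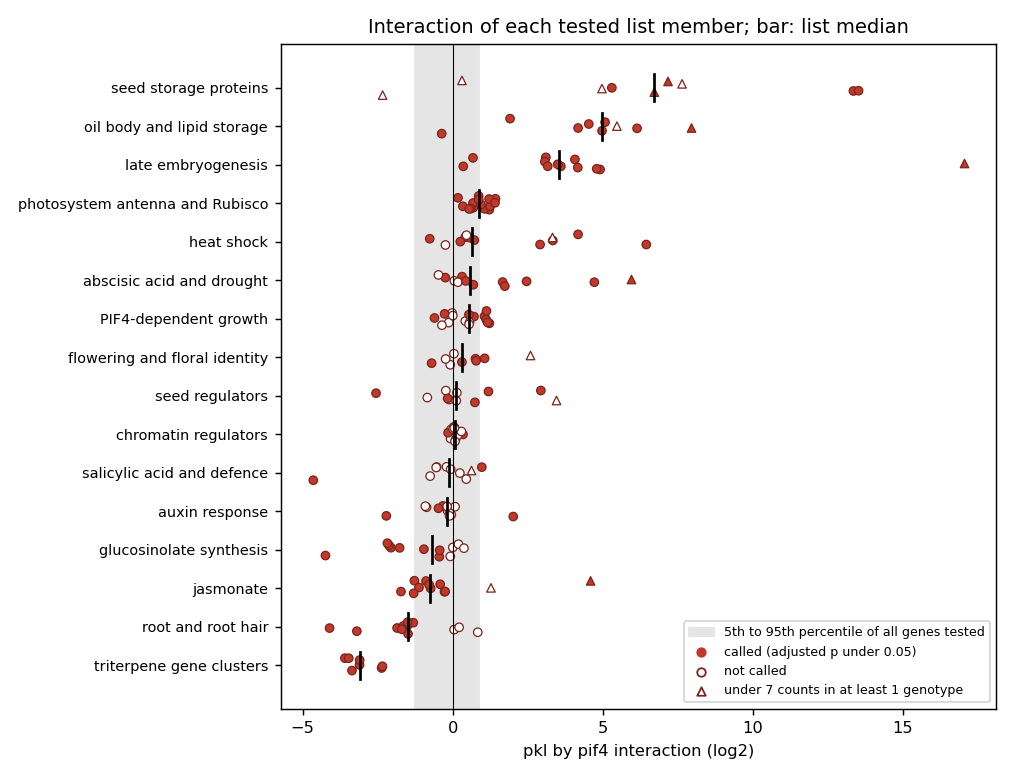
Log2 interaction (x axis) of each tested member of 16 gene lists (y axis), filled where called; triangles mark genes with under 7 counts in a genotype, the bar marks the list median and the grey band holds the middle 90% of all genes tested. The medians of the storage, oil body and late embryogenesis lists lie right of the band, though SESA4 lies left of it and CRU2, DGAT1, LEA18 and PER1 inside it. All triterpene genes lie left of the band and all chromatin regulators inside it.

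Genes of the thalianol and marneral clusters, which make triterpenes in roots, were called above WT in pkl (6 of 7, beside 27.1% of all genes) and with the pif4 label (7 of 7, beside 16.2%), and below WT in the combination (6 of 7, beside 27.7%). This list of 7 was put together after the values were seen. All 7 interactions were negative, beside 16.5% of all genes tested, with a median of -3.11. THAS1, the thalianol synthase gene (AT5G48010), had 10.3, 11.4 and 10.8 CPM in WT, 37.5, 40.7 and 35.6 in pkl, 25.2, 24.4 and 24.8 in the pif4-labelled libraries and 6.57, 8.45 and 8.66 in the pklpif4-labelled libraries. The single effects would give 86.8 CPM (interaction -3.47 ± 0.11, adjusted p = 1.45e-51). Its neighbours CYP705A5 and CYP708A2, which encode P450 enzymes that modify thalianol, had 7.35 ± 0.527 and 10.3 ± 0.196 CPM in the combination, against 20.9 ± 0.783 and 17.3 ± 1.80 in WT, and each single was above WT. MRN1, the marneral synthase gene, was not called for pkl in WT (49.4 ± 0.297 against 52.5 ± 1.73 CPM in WT, adjusted p = 0.0869). It rose to 105 ± 3.99 in the pif4-labelled libraries and was 11.5 ± 0.801 in the combination (interaction -3.101 ± 0.07). CYP71A16, of the marneral cluster, was the 1 member not called below WT in the combination, with 14.6 ± 0.999 against 16.0 ± 0.697 CPM.

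Root and root hair genes were called above WT in pkl in 9 of 12 cases (27.1% of all genes) and with the pif4 label in 11 (16.2%). In the combination 8 were called above WT (27.2% of all genes) and 2 below it (27.7%), with IRT1 among the latter. The interaction was negative in 9 (16.5% of all genes) and positive in none (15.3%), with a median of -1.51. IRT1, the iron transporter of the root epidermis, had 13.9, 14.6 and 15.2 CPM in WT, 15.8, 17.1 and 16.9 in pkl, 53.4, 49.8 and 47.0 in the pif4-labelled libraries and 3.52, 2.69 and 3.86 in the pklpif4-labelled libraries. The rise with the pif4 label became a fall where pkl was also mutant (interaction -4.10 ± 0.12, adjusted p = 6.95e-56). FRO2, the ferric reductase that works with IRT1, had 6.96 ± 0.501, 10.03 ± 0.593, 26.0 ± 1.09 and 4.07 ± 0.263 CPM (-3.20 ± 0.14). The root hair wall gene PRP3 kept a rise, with 17.8 ± 2.52, 67.1 ± 3.68, 29.9 ± 0.326 and 45.8 ± 1.51 CPM, below the product of 113 (-1.32 ± 0.08). The expansin gene EXPA7, of growing root hairs, had the same order, with 4.04 ± 0.598, 16.8 ± 1.85, 6.80 ± 0.718 and 9.90 ± 0.378 CPM (-1.51 ± 0.16). The patterning genes SCR and SHR and the stem cell niche gene WOX5 were not called (0.04 ± 0.06, 0.21 ± 0.13 and 0.83 ± 0.87). The 6 root markers, all of which are in this list, summed to 67.1 to 72.5 CPM in WT, 137 to 145 in pkl, 91.3 to 96.2 with the pif4 label alone and 118 to 120.4 in the combination. Much of the difference between these sums came from PRP3, whose values are given above. SCR had 46.6, 49.4, 51.8 and 56.6 CPM in the same order, and WOX5 had 27, 29, 30 and 57 counts. The share of root tissue per seedling was not measured, and its part in these values was not tested.

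All 7 aliphatic glucosinolate genes of the list, for defence compounds made from methionine, had negative interactions. Of 12 glucosinolate genes tested, 8 were negative and none positive, beside 16.5% and 15.3% of all genes, with a median of -0.70. MAM1, which encodes the first chain-elongation enzyme, had 101, 102 and 105 CPM in WT, 40.8, 37.4 and 39.8 in pkl, 54.3, 50.1 and 50.9 in the pif4-labelled libraries and 5.32, 6.27 and 5.84 in the pklpif4-labelled libraries. The product would be 19.8 CPM (interaction -1.77 ± 0.08, adjusted p = 9.76e-39). CYP83A1, of the core pathway, had 79.5 ± 2.45, 33.4 ± 1.02, 44.8 ± 2.84 and 4.32 ± 0.141 CPM (-2.12 ± 0.09), and the aminotransferase gene BCAT4 had 37.2 ± 2.47, 29.3 ± 0.524, 19.1 ± 0.381 and 3.29 ± 0.780 (-2.18 ± 0.12). CYP79F1 had 24.5 ± 1.77, 5.37 ± 0.202 and 6.73 ± 1.08 CPM in WT, pkl and pif4-labelled libraries and 10 counts over the 3 pklpif4-labelled libraries (-4.24 ± 0.33). On log2(FPKM + 1), which shrinks low values, its interaction was -0.22 (adjusted p = 0.239). CYP79F2, a near copy, rose in pkl to 13.5 ± 1.15 CPM from 6.45 ± 0.766 and was 4.43 ± 0.315 in the combination. The regulator gene MYB29 was also negative (-0.96 ± 0.25), though not on log2(FPKM + 1) (adjusted p = 0.484). MYB28, the other aliphatic regulator, had -0.45 ± 0.13. Of the 5 genes of the indolic branch, whose products come from tryptophan, only CYP79B2 was called (-0.44 ± 0.08), while CYP79B3, CYP83B1, MYB34 and MYB51 were not. CYP79B3 was called negative with library totals (-0.17) and on log2(FPKM + 1) (-0.16), and MYB51 was called positive without each of 4 libraries.

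Of 12 jasmonate genes tested, 7 were called above WT in pkl (27.1% of all genes) and 9 below it with the pif4 label (16.2%). The interaction was negative in 10 and positive in 1, against 16.5% and 15.3% of all genes, with a median of -0.76. MYC2, which encodes the master bHLH factor of the jasmonate response, had 28.15, 26.9 and 27.9 CPM in WT, 59.4, 58.3 and 59.5 in pkl, 35.7, 36.8 and 38.1 in the pif4-labelled libraries and 32.5, 30.5 and 34.4 in the pklpif4-labelled libraries. The rise seen in pkl was absent with the pif4 label (interaction -1.28 ± 0.07, adjusted p = 5.73e-30). JAZ1, a repressor that jasmonate induces, rose to 28.6 ± 2.08 CPM in pkl from 10.97 ± 0.218 and was 11.4 ± 0.332 in the combination (-0.89 ± 0.12). The synthesis genes LOX2 and AOC2 stayed nearer to the product, with interactions of -0.28 ± 0.04 and -0.26 ± 0.10, and the AOC2 call was lost without each of 5 libraries. The storage protein genes VSP1 and VSP2 of leaves were lowest in the combination, at 0.807 ± 0.123 and 3.86 ± 0.330 CPM against 3.299 ± 0.663 and 16.6 ± 1.08 in WT. The positive member, TAT3, had 108, 22, 1 and 6 counts, and its call was lost on log2(FPKM + 1) and without each of 4 libraries.

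**Figure D5:**
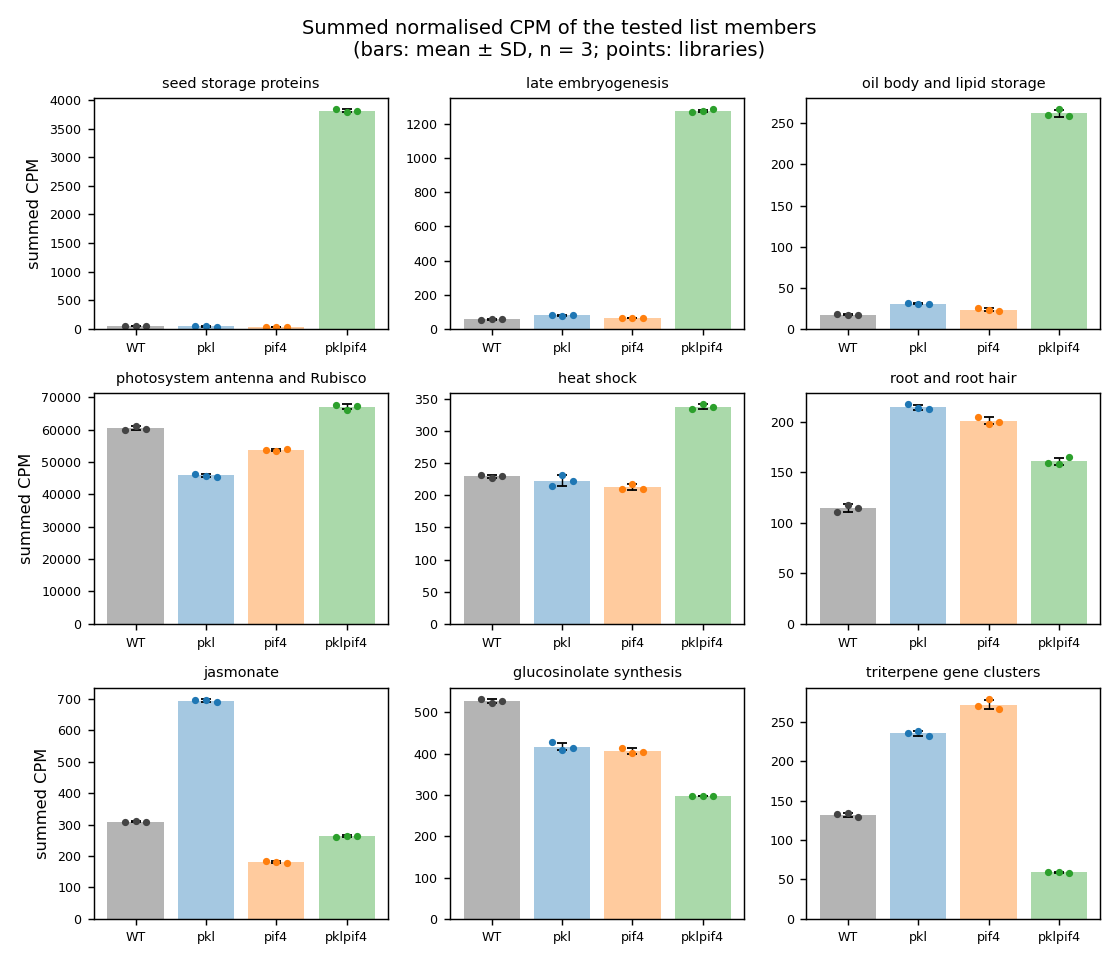
Summed normalised CPM of the tested members of 9 gene lists (y axis) by labelled genotype (x axis), with bars for the mean, error bars for the SD (n = 3) and a point for each library. The summed storage genes were 3809 ± 24.4 CPM in the pklpif4-labelled libraries and 40.7 to 48.7 on average in the other groups, while the summed triterpene genes were 58.8 ± 0.874 there against 132 ± 2.74 in WT.

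The chromatin regulators listed include Polycomb, H3K4 and H3K27 demethylase genes. Of 15 tested, 2 were called, beside 31.9% of all genes. FIE (0.34 ± 0.11) was positive and SDG2 (-0.15 ± 0.05) negative, and the other 13 were not called. The FIE call was lost with library totals, on log2(FPKM + 1) and without WT replicate 1, and the SDG2 call without each of 3 libraries. The chromatin list's median was 0.06, and -0.02 with library totals, where 3 were called negative and none positive. Of 10 tested salicylic acid and defence genes, 1 was positive and 2 negative, near the shares over all genes. ICS1, for salicylic acid synthesis, was positive (0.97 ± 0.14), with 17.2 ± 0.775 CPM in the combination and 7.61 to 8.99 on average elsewhere. PAD4 (-0.53 ± 0.14) and FMO1 (-4.65 ± 0.75) were negative, FMO1 with 14, 125, 114 and 36 counts. Of 9 tested flowering genes, 4 were positive (15.3% of all genes) and SVP, a repressor of flowering, was negative, with 53.7 ± 0.680, 30.0 ± 1.65, 47.1 ± 0.798 and 16.2 ± 1.17 CPM (-0.70 ± 0.08). FLC, another repressor, fell in pkl and rose with the pif4 label, with 4.50 ± 0.430, 1.85 ± 0.457, 7.48 ± 0.517 and 5.24 ± 1.00 CPM (0.76 ± 0.22), and was not called on log2(FPKM + 1) (adjusted p = 0.0819). The calls of MAF4 and MAF5 were each lost without 1 library (adjusted p = 0.0552 without pklpif4 replicate 3 and 0.0634 without pif4 replicate 2). That of SOC1 was lost in 7 other settings and without each of 9 libraries.

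The 10 largest positive interactions among genes with at least 7 counts in every group and 5 CPM in at least 1 ran from 6.75 to 13.52, and in all 10 the pklpif4-labelled libraries were called above each other group. Beside CRU3 and SESA5 they include PAP85, which encodes a cupin protein, with 22.2 ± 1.14, 15.6 ± 0.842, 3.297 ± 0.221 and 296 ± 5.62 CPM (7.004 ± 0.08). They also include the defensin genes LCR67 (9.35 ± 0.48) and PDF2.1 (7.36 ± 0.48), the gibberellin-regulated GASA3 (7.28 ± 0.38) and AT1G68250, an uncharacterised gene. AT1G68250 had 1.99, 1.604 and 2.11 CPM in WT, 0.516, 0.450 and 0.581 in pkl, 0.770, 1.47 and 1.19 in the pif4-labelled libraries and 789, 768 and 736 in the pklpif4-labelled libraries (11.26 ± 0.21, adjusted p = 1.27e-58). It was not in any list here. The 10 largest negative interactions ran from -3.24 to -4.70. FTM1, which encodes a stearoyl-ACP desaturase, had 1.16, 0.968 and 0.757 CPM in WT, 1.16, 1.09 and 1.58 in pkl, 7.77, 7.90 and 5.78 in the pif4-labelled libraries and 0.198, 0.369 and 0.521 in the pklpif4-labelled libraries. Where pkl was also mutant, its rise with the pif4 label became a fall, to below pkl and WT (-4.70 ± 0.36, adjusted p = 1.57e-21). CYP710A4, a P450 gene, rose in each single and fell below WT in the combination, with 4.53 ± 0.407, 9.22 ± 0.249, 9.34 ± 0.372 and 1.71 ± 0.293 CPM (-3.46 ± 0.19). LCR85, of a cysteine-rich peptide family, had 3.12 ± 0.323, 7.70 ± 0.718, 3.81 ± 0.269 and 0.999 ± 0.162 CPM (-3.24 ± 0.25). IMS2 (also MAM3), of glucosinolate chain elongation, rose in each single, to 33.5 ± 2.95 and 30.2 ± 1.08 CPM from 7.78 ± 0.408, and was 13.8 ± 1.19 in the combination (-3.24 ± 0.11).

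Several abundant genes with negative interactions rose in each single mutant and no further, or less, together. DR4 had 134, 145 and 139.9 CPM in WT, 552, 529 and 530.3 in pkl, 377, 387 and 395 in the pif4-labelled libraries and 382, 373 and 389 in the pklpif4-labelled libraries. The pif4-labelled and pklpif4-labelled libraries overlapped, and the product of 1486 CPM was not approached (-1.96 ± 0.03, adjusted p = 2.02e-75). The latex protein-like gene MLP34 had 188 ± 5.83, 486 ± 15.7, 404 ± 14.9 and 268 ± 10.5 CPM (-1.96 ± 0.04). AIR1 (139 ± 1.99, 224 ± 9.74, 252 ± 3.96 and 57.5 ± 2.76 CPM) and MLP328 (52.4 ± 2.28, 97.7 ± 4.13, 111 ± 6.33 and 23.58 ± 0.989) went from above WT in each single to below it in the combination. AT5G26280, of the TRAF-like family, had 178 ± 8.02, 336 ± 10.8, 311 ± 8.38 and 271 ± 2.52 CPM (-1.12 ± 0.04). NFXL1, a zinc finger gene, had 113 ± 1.56, 291 ± 4.80, 129.5 ± 2.17 and 163 ± 2.93 CPM (-1.04 ± 0.04). The transporter gene ABCC3 differed from these, as it fell with the pif4 label alone. It rose in pkl to 402 ± 3.59 CPM from 93.1 ± 3.103 in WT, and with the pif4 label only from 73.8 ± 2.42 to 135 ± 2.81 (-1.24 ± 0.04).

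In some genes the effect of pkl depended strongly on the pif4 label. NIT2, a nitrilase gene, had 498, 496 and 499.7 CPM in WT, 944, 958 and 974 in pkl, 12.6, 13.1 and 13.1 in the pif4-labelled libraries and 131, 127 and 132 in the pklpif4-labelled libraries. Its rise with pkl was 0.95 ± 0.02 in WT and 3.33 ± 0.03 in the pif4-labelled background (interaction 2.39 ± 0.04, adjusted p = 1.92e-78). DIN2, a glucosidase gene induced by darkness, had 115, 114 and 112 CPM in WT, 107, 104 and 113 in pkl, 6.82, 5.96 and 5.24 in the pif4-labelled libraries and 53.1, 52.3 and 52.5 in the pklpif4-labelled libraries. It was not called for pkl in WT (adjusted p = 0.0829), while pkl raised it by 3.12 ± 0.06 in the pif4-labelled background (interaction 3.20 ± 0.07, adjusted p = 1.89e-66). SOT12, a sulfotransferase gene, rose in pkl to 122 ± 4.47 CPM from 24.4 ± 1.32, and with the pif4 label from 24.5 ± 0.683 to 47.4 ± 0.376 (-1.36 ± 0.07). The glycine-rich protein gene AT1G04800 fell in pkl to 30.0 ± 1.44 CPM from 74.8 ± 3.70, and the pif4-labelled and pklpif4-labelled means were 69.9 ± 2.33 and 70.3 ± 5.03 (1.32 ± 0.06).

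Other called genes had a group near 0, and only levels are given. AT4G29200, a beta-galactosidase related gene, had 0.0230, 42.0, 0.144 and 1.597 CPM on average in WT, pkl, pif4-labelled and pklpif4-labelled libraries. AT2G01422, annotated as other RNA, had 0.0301, 68.4, 0.143 and 68.6 CPM, so that it was high with pkl in both backgrounds. Its call was lost with halved counts (adjusted p = 0.0529) and without WT replicate 2 (0.0536). AT5G43800.1 had 41.5 CPM in WT and 15, 0 and 2 counts in the other groups, and its call was lost without pklpif4 replicate 3 (adjusted p = 1).

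Other genes were picked because the combination lay near the product of the single effects, so that nearness is not a result. The rule asked for both single effects to be called, and for an interaction size and an SE each under 0.1. ECS1 had 46.9 ± 1.69, 9.97 ± 0.391, 42.0 ± 0.941 and 9.28 ± 1.29 CPM, against a product of 8.93 (interaction 0.06 ± 0.10, adjusted p = 0.712). CYP71B20, a P450 gene, had 50.9 ± 1.15, 16.0 ± 0.792, 38.4 ± 0.673 and 11.3 ± 1.299 CPM, against 12.1. AT3G62270, of a transporter family, rose in each single and reached 41.1 ± 2.71 CPM, against 43.8. AIG1 and MYB47 also met the rule for such genes, but only because the SE used here is too small where the change is near 0. DESeq2 gave SEs of 1.36 and 0.41 for them, and AIG1 had 0 counts in the pklpif4-labelled libraries. With limma on log2(FPKM + 1) the AIG1 interaction was called positive (1.89, adjusted p = 7.87e-08). An interaction that is not called does not show that the effects multiply.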

How the data were processed

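RNA-seq was used of 12 libraries of whole seedlings, with poly(A) RNA, TruSeq libraries and HiSeq Xten reads per the labels' protocols. Reads were trimmed with fastp, aligned with HISAT2 2.1.0 to TAIR10 and handled with SAMtools 1.6, per the submitters' processing notes. Which program counted the reads, and whether it used strand or reads with several matches, the sources used here do not say. The authors deposited raw counts per gene and FPKM values. The deposited FPKM values could be recomputed from the counts within 4.35e-07. Another deposited pair of tables, whose file and column names carry the prefix of the 12 red-light samples, held the same values in every row, and 24 per-sample columns were not used.

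Counts were fitted with edgeR 4.0.16 in R 4.3.3 (TMM factors, filterByExpr with a minimum count of 10 and a total of 15, robust quasi-likelihood F test, 4 group means without a block). The SE is the log2 value divided by the square root of F, and is unreliable near 0 or at few counts. All p-values were adjusted over the 22130 genes. Alternatives used RLE factors, library totals, no filter, a mean of at least 5 CPM, DESeq2 1.42.0, limma 3.58.1 on the deposited FPKM as log2(FPKM + 1), halved counts, a replicate block, no robust estimation, a threshold of 0.01 and each library left out. Halved counts were tried because low counts were even more often than high ones. The scripts were tested on simulated data. Replicates of a group differed by more than sampling noise of independent counts would give, with a chi-square per gene of 3.37 to 4.13. That value would also rise if fragments were counted more than once, and it was not computed on halved counts. Correlations of same-numbered libraries' deviations were -0.03 to 0.02, so the numbers were not taken to pair the samples.

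The members and gene lists were chosen with earlier results of these data known, and the triterpene list and the seed promoters after their values were seen. Genes named are members of the lists, the 10 largest interactions in each direction (at least 7 counts in every group and 5 CPM in 1), the 5 most abundant in each direction at 2-fold or more, 5 with 6 or fewer counts in a group, 5 that met a rule for multiplying effects, the 3 most significant of each of the first 5 patterns, and PKL, PIF4 and PAO2. Of the 33612 identifiers, 28932 were found in RefSeq TAIR10.1. Gene coordinates are those of the deposited table, and promoters were read from the RefSeq TAIR10.1 genome.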

Additional observations from a re-analysis of the deposited data

Results flagged for a closer look

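Each value here is a test of whether the pkl effect differs between the pif4-labelled background and WT (edgeR, adjusted p under 0.05). In the genes given here, pkl was called up in one background and down in the other. They were named by a rule other than list membership, and further list members with such opposite effects are not repeated. The pkl effect was higher in the pif4-labelled background in 3394 genes and lower in 3660, and it was called in opposite directions in 1058.

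Those that fell with pkl in WT and rose with it in the pif4-labelled background include the storage genes SESA5 (log2 interaction 13.52) and CRU3 (13.35), ECP31 (17.03, with a group at 0 counts, so its size depends on the prior count), AT1G68250 (11.26), PDF2.1 (7.36), GASA3 (7.28) and PAP85 (7.004). Light-harvesting genes among them include LHB1B1 (3.43), CAB2 (1.42), LHCB3 (1.41), CAB3 (1.24), LHCA1 (1.22), LHB1B2 (1.16) and LHCA4 (1.06). Those that rose with pkl in WT and fell with it in the pif4-labelled background include IRT1 (-4.10), CYP705A5 (-3.59), THAS1 (-3.47), CYP710A4 (-3.46), CYP708A2 (-3.36), IMS2 (-3.24), LCR85 (-3.24), MLP328 (-3.13), AIR1 (-2.82), MLP34 (-1.96), AT5G26280 (-1.12) and PAO2 (-0.56).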

How the results depend on the processing

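No interaction of a named gene changed sign under an alternative run where either value was called. Among those called in neither, 117 values of 34 genes did. List medians that changed sign were those of chromatin regulators (0.06) with library totals (-0.02) and on log2(FPKM + 1) (-0.01), flowering genes (0.30) with a mean of at least 5 CPM (-0.10), and seed regulators (0.12) without pklpif4 replicate 2 (-0.04). Genes called positive by at least 2-fold were 228 with a mean of at least 5 CPM and 351 on log2(FPKM + 1), against 621, and negative ones 341 and 505, against 1108. The first tests fewer genes by construction (15316), and the cause of the second was not tested. Leaving out 1 library at a time gave 3121 to 3233 positive and 3398 to 3455 negative genes, 587 to 619 and 1050 to 1099 at 2-fold, 10891 to 11927 for pkl in WT, 10124 to 11190 for pkl in the pif4-labelled background, 6278 to 7213 for the pif4 label in WT and 7903 to 8927 in pkl. Calls were 3370 and 3687 with RLE factors, 3204 and 3776 with no filter, 3356 and 3675 with DESeq2, and 3417 and 3710 with halved counts. With replicate number as a block they were 3373 and 3632. Of the counts over all genes, only those at 2-fold given above moved by over 1.5 times. Library totals shifted the median of all genes to -0.08 and log2(FPKM + 1) to -0.07. Of 1935 values of named genes under these settings, 1887 kept their side of the threshold, 27 lost it and 21 gained it, and of 2676 with a library left out, 2583, 75 and 18. For the lists, 38 of 432 counts and medians moved under these settings, and 42 of 576 with a library left out. A list count moved if it changed by over 1.5 times, or to or from 0. A list median moved if its sign changed or its shift reached the spread between replicates. Genes with few counts limit the depth at which an interaction can be called.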
